A study of Mus musculus with 6 samples.

Results

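The immunoglobulin heavy chain locus of the mouse holds a long array of variable (V) segments, grouped by sequence into numbered families. Described here are all segments outside Ighv1, the largest family: the gene identifiers whose symbol begins with Ighv and a family number other than 1. They numbered 92 of the 54752 identifiers in each expression table and belonged to 15 families. The annotation calls 60 of them V genes, 31 V pseudogenes and 1, an identifier of Ighv5-8 on the opposite strand, an IG_LV gene. All lie on chromosome 12 between 113572927 and 115858301 (GRCm38), a span of 2285 kb.

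RNA was sequenced from pro-B cells sorted from bone marrow of adult C57BL/6 mice, in 1 strand-specific mRNA library per mouse, with the sort markers not given. Controls (3 libraries) had the genotype Skiv2lfl/fl, with no Cre named in the labels. Skiv2l-deleted cells (3 libraries) had the genotype Skiv2lfl/fl-Cd79a-Cre, in which Cre is driven from Cd79a, a gene switched on early in the B lineage. The SKI complex, whose RNA helicase is the Skiv2l product, feeds messenger RNA into the cytosolic exosome. Skiv2l itself stood at 25.4, 20.2 and 46.3 FPKM in controls 1 to 3, against 9.53, 16.1 and 10.9 in the deleted group, so the groups did not overlap, transcript remained in all 3 deleted libraries, and the fold change did not pass (log2 −1.21 ± 0.32, limma adjusted p = 0.063). Both groups carry the floxed alleles, and only 1 group carries Cre, so Cre and the deletion cannot be told apart.

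In pro-B cells the RAG recombinase first joins a D to a J segment and then a V segment to the DJ join, and the rearranged V exon is spliced to the mu constant gene, Ighm. Families Ighv2 and Ighv5 crowd the end of the array next to the D segments, and Ighv8 segments lie scattered among Ighv1 segments at the far end. Segments that are accessible also give unrearranged (germline) transcripts before joining. Messages of rearranged and germline segments were not separated by these tables, and in bulk samples fewer cells of a type and less RNA per cell cannot be told apart.

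Expression is given as FPKM, the authors' fragment count scaled to transcript length and library size, which allows levels to be set side by side between genes. By the ratio of the deposited coverage to FPKM, each library held 1.74 to 2.40 Gb of aligned sequence if both units have their usual definitions, and no read counts were used because none are in the tables. Of 12 pro-B markers all 12 were tested, and Igll1, a surrogate light chain gene, spanned 402 to 579 FPKM over the controls and 1021 to 1423 over the deleted group. Of 7 myeloid markers 0 passed between groups, where 8.84% of all genes did. Their fold changes had wide SEs, 0.56 to 2.21 on the log2 scale, so only very large changes could pass. Their sum ranged from 130 to 1264 FPKM over the controls and from 82.7 to 2244 over the deleted group. The granule gene Mpo stood at 343 FPKM in control 3 and 641 in Skiv2l-deleted 2, and between 4.30 and 8.99 in the other 4 libraries. By Mpo those 2 libraries stand apart, and results are given without them where that changes a call. Lyz2, Elane, Csf1r and Itgam were also highest in them. S100a8 and S100a9 were high in further libraries, at 129 and 217 FPKM in control 2 and 100 and 165 in Skiv2l-deleted 1. S100a8 stood at 2.30 in control 1 and 1.97 in Skiv2l-deleted 3. The other libraries were thus not all free of myeloid RNA. The erythroid gene Hba-a1 stood at 59.4 FPKM in Skiv2l-deleted 2 and at 2.38 or less in every other library. Of 7 T and NK cell markers 1 was tested, Klrb1c, an NK cell receptor gene, which rose from 2.90 ± 0.63 to 11.2 ± 1.77 FPKM (limma adjusted p = 0.00608). Cd4 was higher in every deleted library than in any control, at 0.391 FPKM or less, and the 3 CD3 chain genes stood at 0 to 0.527 FPKM. The part of such cells in the results was not tested.

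The summed level of the 92 segments was lower in Skiv2l-deleted cells. It was 751, 742 and 554 FPKM in controls 1 to 3 and 197, 197 and 154 FPKM in Skiv2l-deleted 1 to 3. The groups did not overlap, and the lowest control still lay far above the highest Skiv2l-deleted library. The means were 683 ± 111 and 183 ± 25.2 FPKM (SD, n = 3), 3.74-fold lower, with a log2 fold change of −1.89 ± 0.17 (SE, limma adjusted p = 0.00465, exact two-sided permutation p = 0.1, the smallest that 3 against 3 allows). The segments took 0.133% ± 0.028 of all FPKM in controls and 0.0353% ± 0.0045 in Skiv2l-deleted libraries.

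Set against their constant gene, the segments were lower too. Ighm, which encodes the mu chain, stood at 3534, 3188 and 3483 FPKM in controls and at 2074, 2308 and 2319 in Skiv2l-deleted libraries (log2 fold change −0.61, limma adjusted p = 0.0297). The log2 ratio of the summed segments to Ighm was −2.33 ± 0.29 for controls and −3.62 ± 0.27 for the deleted group, 2.45-fold lower, with no overlap (exact permutation p = 0.1, 0.12 adjusted over the 6 ratios computed). The Ighm call itself was lost when any library other than control 3 was left out (limma adjusted p up to 0.153).

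Within the V array, Ighv1 took a smaller part. Segments outside Ighv1 made up 45.6%, 47.0% and 49.8% of all Igh V FPKM in controls and 52.4%, 57.4% and 59.9% in Skiv2l-deleted libraries. Every Skiv2l-deleted library lay above every control. The log2 ratio of the segments outside Ighv1 to Ighv1 was −0.15 ± 0.12 in controls and 0.38 ± 0.22 after deletion, a difference of 0.53 or 1.44-fold (exact permutation p = 0.1, 0.12 adjusted). This ratio does not depend on library scaling. The separation rested on Ighv5-2 and Ighv14-2, described below. Without that pair the segments summed to 709, 707 and 528 FPKM in controls and 160, 159 and 113 in Skiv2l-deleted libraries. Ighv1 stood at 896, 838 and 558 against 179, 147 and 103 FPKM. On these values control 3 lay above Skiv2l-deleted 1, so the groups overlapped.

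Among single segments, 25 of the 92 were listed at 0 in all 6 libraries, 16 were above 0 but under the expression filter (1 FPKM in at least 3 libraries), and 51 passed it. Of the 25, 21 were pseudogenes, 3 were annotated V genes and 1 was the IG_LV gene. Only 1 of the 31 pseudogenes passed, Ighv4-2, at 4.39, 3.38 and 1.35 FPKM in controls and 1.21, 1.21 and 0 in Skiv2l-deleted libraries. Of the 51, 12 had fewer than 3 Skiv2l-deleted libraries at 1 FPKM, so they passed mainly through the controls (2 of them, Ighv11-1 and Ighv3-4, with 2 controls and 1 deleted library at that level). The counts below describe the segments that passed, not all 92.

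By limma (adjusted p below 0.05), 32 of the 51 fell and 0 rose, and those called had log2 fold changes between −2.94 and −1.04. Over all 13539 genes tested, 8.84% were called, 3.87% lower and 4.97% higher. Of the 38 segments at 1 FPKM or more in all 3 libraries of each group, 27 fell. At an unadjusted p under 0.05, 43 of the 51 passed. The median log2 fold change was −1.65 for the 51 and 0.06 for all genes. The groups did not overlap, with Skiv2l-deleted lower, in 39 of the 51 segments, against 12.3% of all genes. Leaving out control 1 reduced the 32 to 20. Leaving out Skiv2l-deleted 1 gave 17, and leaving out Skiv2l-deleted 3 gave 14. Omitting both libraries with high Mpo gave 38.

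**Figure D1:**
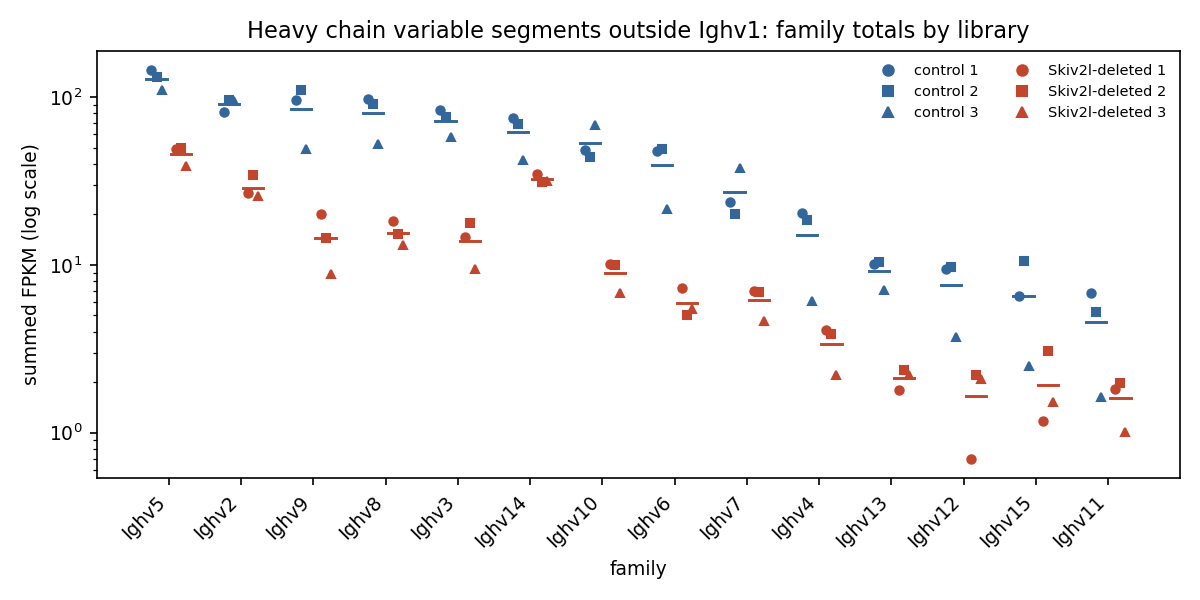
Summed FPKM of each family (log axis) in the 3 control (blue) and 3 Skiv2l-deleted (red) libraries, with horizontal bars at the group means; symbols mark the library. Ighv5 sits highest in both groups, and Ighv14 shows the narrowest gap, 62.0 against 32.4 FPKM.

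Of the 15 families, 14 had a summed level above 0, and 10 of these 14 fell by limma. The exception at 0 was Ighv16, whose only segment was listed at 0 throughout. By group means the D-proximal families Ighv5 and Ighv2 were the most abundant in controls. In the deleted group, again by means, Ighv5 was followed by Ighv14 (32.4 FPKM) and then Ighv2 (28.9). The place of Ighv2 varied by library. In control 1 it lay under Ighv8, Ighv9 and Ighv3 (81.0 against 98.0, 95.7 and 83.5 FPKM), and in control 2 under Ighv9 (96.7 against 110). Ighv5 (22 identifiers, 9 tested, 7 lower) stood at 145, 132 and 110 FPKM in controls and 48.8, 49.4 and 39.0 in Skiv2l-deleted libraries (log2 fold change −1.48 ± 0.15, limma adjusted p = 0.00533). Ighv2 (11 identifiers, 8 tested, 5 lower) stood at 81.0, 96.7 and 94.4 against 26.7, 34.1 and 25.7 FPKM (−1.63 ± 0.14, limma adjusted p = 0.00465).

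The 4 families with the largest folds were Ighv6, Ighv10, Ighv9 and Ighv3. Ighv6 was 6.65-fold lower (39.4 ± 15.6 against 5.93 ± 1.21 FPKM, limma adjusted p = 0.00983) and Ighv10 5.97-fold lower (53.5 ± 13.1 against 8.95 ± 1.84, limma adjusted p = 0.00465). Ighv9 was 5.86-fold lower (85.1 ± 31.9 against 14.5 ± 5.68, limma adjusted p = 0.014), and Ighv3 5.22-fold (72.5 ± 13.1 against 13.9 ± 4.14, limma adjusted p = 0.00533). In each of these 4 families no Skiv2l-deleted library reached the lowest control. The Ighv9 call was lost without control 1 (limma adjusted p = 0.0597) and without Skiv2l-deleted 3 (0.0556).

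Ighv8, the family spread among Ighv1 segments, stood at 98.0, 91.0 and 52.4 FPKM in controls and 18.3, 15.3 and 13.1 in Skiv2l-deleted libraries, 5.17-fold lower (limma adjusted p = 0.00702). Ighv7, which includes the segment of classical antibodies to phosphorylcholine, fell 4.42-fold (limma adjusted p = 0.00983), and the single expressed segment of Ighv13 fell 4.32-fold (limma adjusted p = 0.00595). Ighv12, known from B-1 cell antibodies to phosphatidylcholine, was 4.60-fold lower (limma adjusted p = 0.0454), a call lost when any library other than control 3 was left out (limma adjusted p up to 0.146).

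The other 4 families did not pass. Ighv4 stood at 20.4, 18.5 and 6.06 FPKM in controls and 4.09, 3.85 and 2.22 in Skiv2l-deleted libraries (limma adjusted p = 0.0544), with 0.00759 when control 3, its lowest control, was left out. Ighv14 stood at 75.4, 68.7 and 41.9 against 34.7, 31.0 and 31.5 FPKM (log2 fold change −0.87 ± 0.22, limma adjusted p = 0.0545), with 0.00656 without control 3. Ighv11 (log2 fold change −0.97, limma adjusted p = 0.187) and Ighv15 (−1.25, limma adjusted p = 0.139) had overlapping groups and passed without control 3 (0.0174 and 0.0266). Other omissions of 1 library went the other way. The limma adjusted p then reached 0.178 for Ighv4, 0.173 for Ighv14, 0.422 for Ighv11 and 0.351 for Ighv15.

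**Figure D2:**
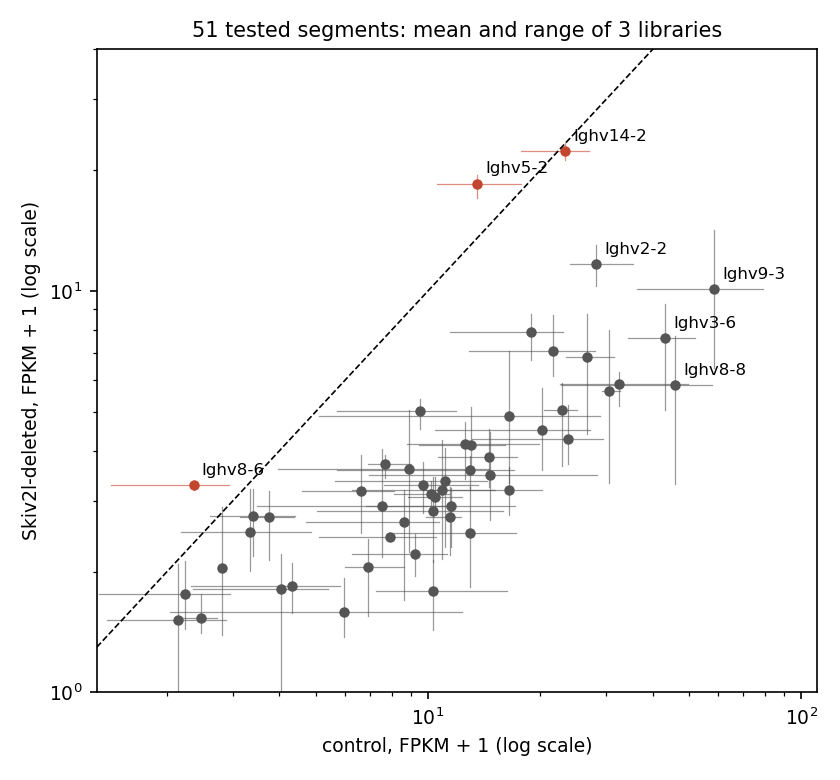
Each of the 51 tested segments by its control mean (x) and Skiv2l-deleted mean (y) of FPKM + 1, both on log axes; thin lines span the 3 libraries of each group and the dashed line marks equal levels. Most points lie well below the line, with Ighv5-2 and Ighv8-6 above it and Ighv14-2 on it.

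A pair of well-expressed segments was not called lower, while 7 of the other 8 tested Ighv5 segments and 2 of the other 3 tested Ighv14 segments fell. Ighv5-2 (113578504 to 113578990, minus strand), also called VH81X, is the first functional segment next to the D segments and the textbook example of a V segment joined very often in pro-B cells, whose chains often fail to pair with surrogate light chain. It stood at 16.7, 11.3 and 9.54 FPKM in controls and at 16.1, 17.99 and 18.5 in Skiv2l-deleted libraries. Only Skiv2l-deleted 1 lay within the control range. The log2 fold change was 0.48 ± 0.20 and did not pass (limma adjusted p = 0.185, 0.0674 to 0.402 over the alternatives).

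Ighv14-2 (113994469 to 113994898, minus strand) stood at 26.1, 24.0 and 16.8 FPKM in controls and at 21.3, 20.2 and 22.4 in Skiv2l-deleted libraries. The groups overlapped and the log2 fold change was −0.04 ± 0.17 (limma adjusted p = 0.921). It was the most abundant single segment outside Ighv1 in each Skiv2l-deleted library. Ighv9-3 led in controls 1 and 2, and Ighv10-1 in control 3 (48.8 FPKM against 35.2 for Ighv9-3). The mean coverage behind these values was 23.4 and 36.6 reads per base for Ighv5-2 and 41.6 and 44.6 for Ighv14-2, in controls and Skiv2l-deleted libraries.

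Relative to the rest of the segments outside Ighv1, both stood higher in every Skiv2l-deleted library than in any control. Ighv5-2 made up 2.23%, 1.53% and 1.72% of the summed FPKM in controls and 8.15%, 9.12% and 12.04% in Skiv2l-deleted libraries. Its log2 ratio to the other segments differed by 2.54, or 5.82-fold (exact permutation p = 0.1, 0.12 adjusted over 6 ratios). Ighv14-2 went from 3.24% ± 0.22 to 11.9% ± 2.37, a log2 ratio difference of 1.99 or 3.98-fold (exact permutation p = 0.1, 0.12 adjusted). Both segments were singled out after their values were seen, Ighv5-2 also by its known position. Leaving out the pair, the rest summed to 648 ± 104 FPKM in the control group and to 144 ± 27.02 in the deleted group.

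The coding ends of these segments and of mates that fell are shown because reads of near-identical segments can be assigned to the wrong copy. Each line gives the last 90 bases of the segment, 5′ to 3′, from the GENCODE transcript on the minus strand of GRCm38, just before the recombination signal. Capitals mark the codon of the conserved cysteine that opens the third complementarity-determining region, found as TGT after TAC, TAT, TTC or TTT; 48 of the 51 tested segments hold such a match on the coding strand within their last 30 bases.
Ighv5-2 (chr12:113578504-113578593): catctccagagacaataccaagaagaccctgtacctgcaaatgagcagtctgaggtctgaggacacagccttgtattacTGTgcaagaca
Ighv5-9 (chr12:113661769-113661858): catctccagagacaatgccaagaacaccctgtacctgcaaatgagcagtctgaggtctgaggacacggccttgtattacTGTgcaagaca
Ighv5-6 (chr12:113625506-113625595): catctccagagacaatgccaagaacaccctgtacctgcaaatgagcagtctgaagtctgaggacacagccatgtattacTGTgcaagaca
Ighv14-2 (chr12:113994469-113994558): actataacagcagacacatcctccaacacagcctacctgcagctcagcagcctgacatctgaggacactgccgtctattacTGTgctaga
Ighv14-3 (chr12:114059845-114059934): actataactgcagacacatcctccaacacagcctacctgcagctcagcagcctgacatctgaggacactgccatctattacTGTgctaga
Ighv14-4 (chr12:114176438-114176527): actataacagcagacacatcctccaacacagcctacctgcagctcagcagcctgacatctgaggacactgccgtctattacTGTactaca

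In these last 90 bases Ighv5-2 differed from Ighv5-9 by 3 edits and from Ighv5-6 by 4. Over the whole transcript it was at most 87.3% identical to any other Igh V segment (nearest Ighv5-6). Ighv14-2 differed from Ighv14-3 and from Ighv14-4 by 2 edits each in the last 90 bases and was 97.2% identical to Ighv14-1. Its separate value is therefore less certain than that of Ighv5-2. Over the 51 tested segments the identity to the nearest Igh V segment had a median of 94.8% and was 95% or more in 23.

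Most of their family mates fell. The exceptions were Ighv5-12 (8.54 against 4.01 FPKM, limma adjusted p = 0.11) and Ighv14-1 (5.603 against 2.17 FPKM, limma adjusted p = 0.0543). Ighv5-17 stood at 31.7, 28.7 and 28.2 FPKM in controls and 7.01, 4.58 and 2.32 in Skiv2l-deleted libraries (log2 fold change −2.53 ± 0.30, limma adjusted p = 0.00748). Ighv5-6 stood at 22.4, 23.8 and 30.5 against 6.39, 7.76 and 3.41 (−2.001 ± 0.27, limma adjusted p = 0.00945), and Ighv5-9-1 at 16.2, 12.6 and 7.03 against 2.24, 1.43 and 0.832 (−2.34). For all 3 the highest Skiv2l-deleted library lay below the lowest control. Ighv14-3 fell from 13.5 ± 3.45 to 2.85 ± 0.65 FPKM (−1.90 ± 0.22, limma adjusted p = 0.00744). Ighv14-4 fell by 1.55 on the log2 scale, a call lost when any library other than control 3 was left out (limma adjusted p up to 0.105). Without its most abundant member the Ighv14 total passed (log2 fold change −1.71, limma adjusted p = 0.0151).

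**Figure D3:**
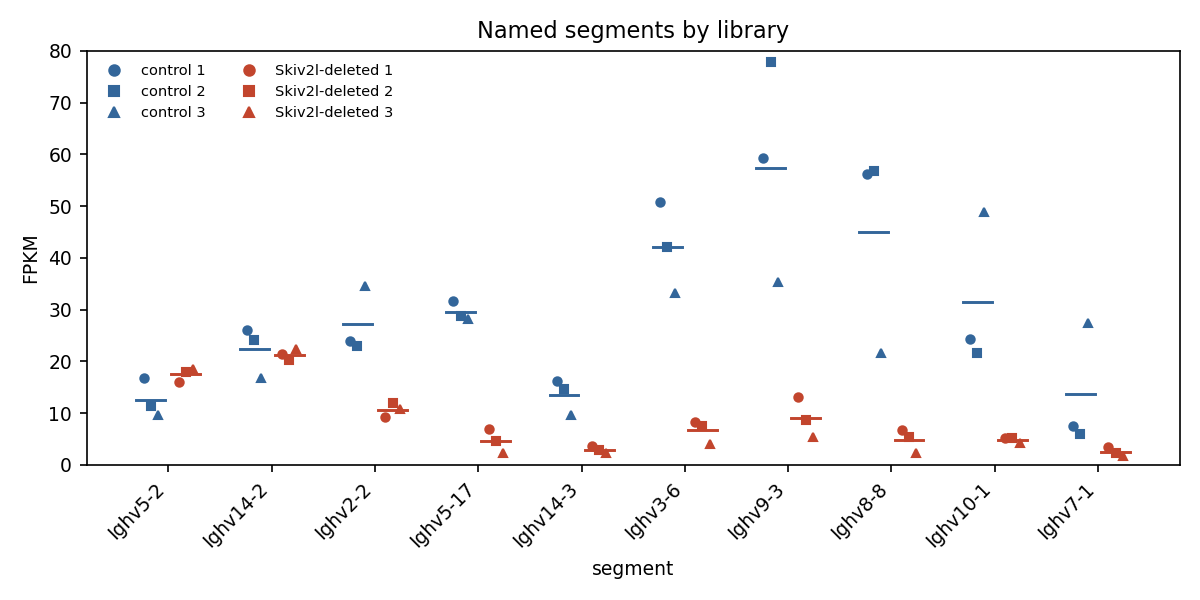
FPKM of 10 named segments in each library (blue control, red Skiv2l-deleted; bars are group means). Ighv5-2 and Ighv14-2 overlap between groups while the other 8 are lower in every Skiv2l-deleted library, and control 3 is the highest control for Ighv2-2, Ighv10-1 and Ighv7-1 but the lowest for Ighv9-3 and Ighv8-8.

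A few other segments had log2 fold changes near or above 0, all at low levels and none past the threshold. Ighv8-6 stood at 1.72, 0.419 and 1.93 FPKM in controls and 2.34, 2.20 and 2.29 in Skiv2l-deleted libraries, the only segment of the 51 whose Skiv2l-deleted values all lay above the controls (log2 fold change 0.55, limma adjusted p = 0.282), where 19.9% of all genes did so. Ighv8-2 (−0.29, limma adjusted p = 0.511) and Ighv11-1 (−0.28, limma adjusted p = 0.649) had overlapping groups at 3.39 FPKM or less in every library.

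The 8 lowest log2 fold changes were led by segments abundant in controls. Ighv8-8 (chromosome 12, 115294062 to 115294504) stood at 56.2, 56.8 and 21.6 FPKM in controls and at 6.74, 5.44 and 2.30 in Skiv2l-deleted libraries (log2 fold change −2.94 ± 0.45, limma adjusted p = 0.0136). Ighv9-3 (114140692 to 114141122), the most abundant segment by control mean, stood at 59.3, 77.7 and 35.2 against 13.2, 8.69 and 5.44 FPKM (−2.53 ± 0.36, limma adjusted p = 0.0112). Neither had overlapping groups, yet both had their lowest control in control 3. Without control 1 their calls were just lost (limma adjusted p = 0.0569 for Ighv8-8 and 0.0504 for Ighv9-3), as was that of Ighv8-8 without Skiv2l-deleted 3 (0.0509).

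Falls of more than 1.5 on the log2 scale were also called in Ighv3, Ighv6, Ighv10, Ighv13 and further Ighv8 segments. Ighv3-6 stood at 50.8, 42.1 and 33.3 FPKM in controls and 8.26, 7.59 and 4.04 in Skiv2l-deleted libraries (log2 fold change −2.53 ± 0.26, limma adjusted p = 0.00558). Ighv6-3 fell by 2.40, Ighv8-5 by 2.44 and Ighv10-1 by 2.38 on the log2 scale (limma adjusted p = 0.01002, 0.01002 and 0.0084). Ighv8-5 and Ighv8-8 are 96.1% identical, and Ighv6-3 and Ighv8-5 missed the threshold without Skiv2l-deleted 3 (limma adjusted p = 0.0509 for both). Ighv8-12 fell by 2.07, Ighv3-1 by 1.91, Ighv3-8 by 1.73 and Ighv13-2 by 1.69, of which Ighv13-2 alone was called in every omission of 1 library.

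Near the D segments the falls were smaller for some segments but present. Ighv2-2, the next functional segment after Ighv5-2, stood at 24.0, 23.0 and 34.5 FPKM in controls and 9.29, 11.99 and 10.7 in Skiv2l-deleted libraries. By group mean it was the third most abundant segment in the Skiv2l-deleted group. Its log2 fold change was −1.26 ± 0.18 (limma adjusted p = 0.0114, and 0.0581 and 0.057 without Skiv2l-deleted 1 or 3). Ighv2-3 overlapped between groups, with controls at 14.5, 27.9 and 4.12 FPKM (limma adjusted p = 0.181, 0.0228 without control 3, and up to 0.413 without another library).

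**Figure D4:**
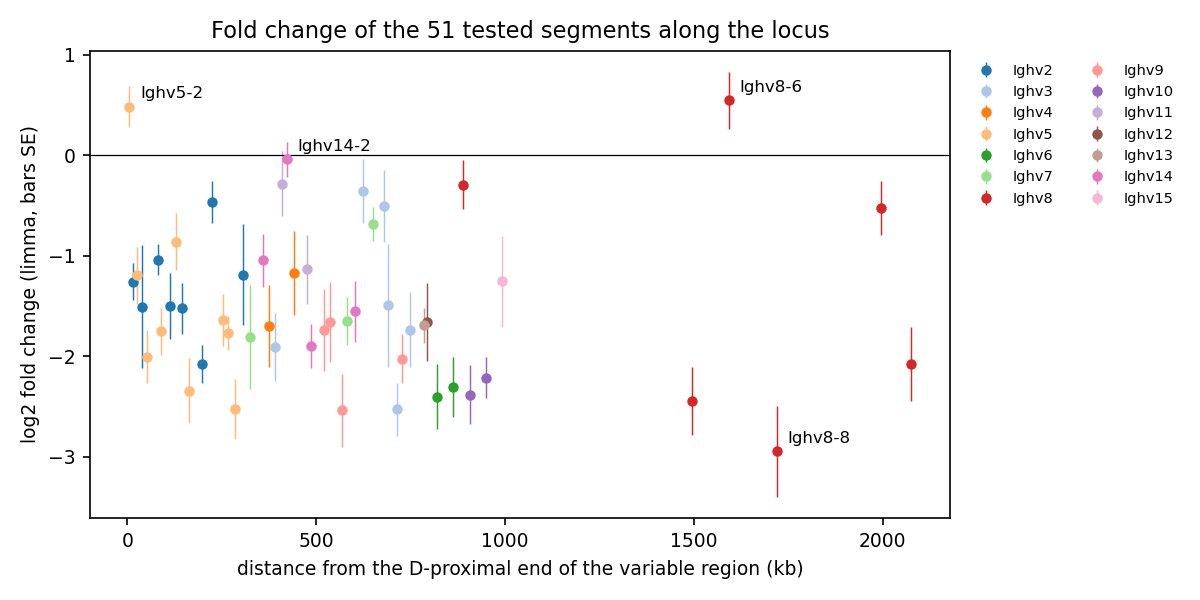
Log2 fold change (limma, bars are SE) of the 51 tested segments against distance in kb from the D-proximal end of the V array, coloured by family. Ighv5-2 at 5.58 kb, Ighv14-2 at 422 kb and Ighv8-6 lie at or above 0, and the rest scatter between −2.94 and −0.28 at all distances.

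Position along the array ordered the fold changes only weakly. Within 100 kb of the D-proximal end 5 of 7 tested segments fell, at a median log2 fold change of −1.26. Between 100 and 500 kb it was 10 of 19 (median −1.52), between 500 and 1000 kb 14 of 20 (−1.68), and beyond 1000 kb, where only Ighv8 segments are left, 3 of 5 (−2.07). Spearman's rho of log2 fold change with distance was −0.21 over the 51 segments, which share the libraries and families and are not replicates. The rank correlation with the control mean was stronger (rho = −0.68), on a scale that understates the change of low segments.

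The D-proximal families held a larger share in the deleted group, and Ighv5-2 carried most of the difference. The log2 ratio of Ighv2 and Ighv5 together to the other segments was −1.05 ± 0.24 for controls and −0.53 ± 0.14 for the deleted group, with no overlap (exact permutation p = 0.1, 0.12 adjusted). Without Ighv5-2 it was −1.14 ± 0.26 against −0.92 ± 0.12 and the groups overlapped (exact permutation p = 0.3). That second ratio was added after the values were seen.

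**Figure D5:**
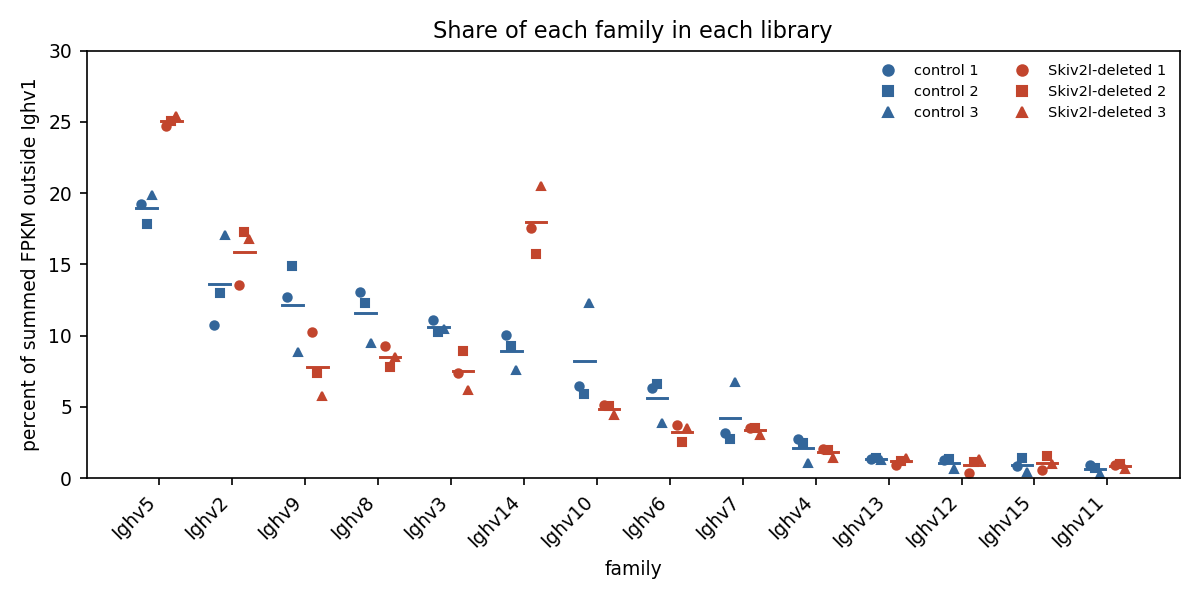
Share of each family in the summed FPKM outside Ighv1, in percent, for the 3 control (blue) and 3 Skiv2l-deleted (red) libraries, with bars at the means. Ighv5 and Ighv14 are higher in every Skiv2l-deleted library, and Ighv3, Ighv6, Ighv8 and Ighv10 lower.

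As shares of the summed level, 2 families stood higher in every Skiv2l-deleted library than in any control. Ighv14 went from 8.95% ± 1.27 to 17.9% ± 2.42, and Ighv5 went from 19.0% ± 1.06 to 25.1% ± 0.34. A single segment carried each rise: Ighv14-2 went from 3.24% ± 0.22 to 11.9% ± 2.37, and Ighv5-2 from 1.83% ± 0.36 to 9.77% ± 2.02. In 4 families the Skiv2l-deleted shares all lay below the controls: Ighv8 (11.6% ± 1.89 to 8.52% ± 0.75), Ighv3 (10.6% ± 0.45 to 7.50% ± 1.39), Ighv10 (8.22% ± 3.56 to 4.86% ± 0.36) and Ighv6 (5.61% ± 1.51 to 3.27% ± 0.62). Shares depend on each other, so larger shares of Ighv5-2 and Ighv14-2 lower the others by construction. With that pair taken out of the total, the shares of all 4 families overlapped between groups. The exact permutation p was 0.1 for each of these 6 families and 0.233 adjusted over the 14 families.

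The controls differed among themselves in the relative levels of the segments. Over the 51 tested segments Spearman's rho between libraries was 0.913 for controls 1 and 2, but 0.772 and 0.656 between control 3 and controls 1 and 2. Among the Skiv2l-deleted libraries it was 0.833 to 0.859. In 27 of the 51 segments control 3 was lower than both other controls by more than 1.5-fold, and in 7 it was higher than both by more than 1.5-fold. The 7 were Ighv5-9, Ighv2-5, Ighv2-6, Ighv7-1, Ighv3-1, Ighv10-1 and Ighv8-5. Ighv7-1 was the clearest, at 7.59, 5.95 and 27.4 FPKM in controls 1 to 3 and 3.45, 2.31 and 1.68 in Skiv2l-deleted libraries (limma adjusted p = 0.0757, 0.032 without control 3, and up to 0.227 without another library). Ighv10-1 stood at 24.3, 21.6 and 48.8 FPKM in controls.

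Most constant genes fell as well, and genes of antibody-secreting cells went both ways. For the counts of this paragraph, 3.87% of all genes tested were called lower and 4.97% higher. Of 8 Igh constant genes 6 of 7 tested fell, and Ighe was listed at 0 throughout. Igha, the IgA constant gene, stood at 216, 164 and 380 FPKM in controls and at 0.302, 0 and 0.0845 in Skiv2l-deleted libraries, and Jchain at 44.5, 36.9 and 75.2 against 0, 0.233 and 0.0821. Both were highest in control 3. Like Ighg1, Ighg3 and Fcer2a, a gene of later B cell stages, they reached 1 FPKM in controls alone. These genes passed the filter only through the controls, so they could be called lower but hardly higher. The 9 plasma cell genes, Igha among them, summed to 809 to 978 FPKM over the controls and 559 to 601 over the deleted group. Without Igha, which is also 1 of the 6 constant genes that fell, these sums overlapped between groups. Of the 7 plasma cell genes tested 3 fell and 1 rose. The riser was Mzb1, a chaperone of antibody assembly, at 241 ± 35.5 against 347 ± 14.3 FPKM, just under the threshold. Xbp1, a factor of secretory differentiation, stood at 42.9 ± 9.20 against 54.4 ± 18.6 FPKM and did not pass. Tnfrsf17, a plasma cell receptor, was at 0.348 to 0.538 FPKM in controls and at 0 in all Skiv2l-deleted libraries, and Prdm1 stayed at or under 0.511 in all 6. Of 9 genes of later B cell stages 7 of 8 tested fell and 0 rose (486 to 618 against 181 to 293 FPKM summed), while 7 of 12 pro-B genes rose and 0 fell. The part of these cells and stages in the fall of the V segments was not tested.

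Recombination genes were called in both directions. Of 16 recombination genes 3 rose and 3 fell, where 4.97% of all genes were called higher and 3.87% lower. The 3 that rose are also counted among the pro-B genes above. Rag1 and Rag2, which make the recombinase, rose by 0.76 and 0.46 on the log2 scale (limma adjusted p = 0.0489 and 0.0401), and Dntt, which adds bases at the joins, by 1.497 (limma adjusted p = 0.0151). Hmgb2, a cofactor of RAG cleavage, fell by 0.74, Polm by 1.91 and Paxip1 by 0.58. Of 18 genes for locus folding, accessibility and V transcription, 0 rose and 1 fell, which is near the 3.87% called lower over all genes. It was Ezh2, which encodes a histone methyltransferase (log2 fold change −0.48, limma adjusted p = 0.0297). Pax5, Yy1 and Ctcf, factors of locus contraction and looping, had log2 fold changes of −0.21, 0.04 and −0.28 and did not pass. Ikzf1 (−0.63, limma adjusted p = 0.0986) and Rad21 (−0.53, 0.131) did not pass either. Both were lower in every Skiv2l-deleted library than in any control, as were 12.3% of all genes. Stat5a (0.44, limma adjusted p = 0.139) was higher in every Skiv2l-deleted library, as were 19.9% of all genes. The calls of Rag1, Rag2, Paxip1 and Ezh2 were lost when any library other than control 3 was left out (limma adjusted p up to 0.176), and those of Dntt, Hmgb2 and Polm without Skiv2l-deleted 1 or 3, among others (limma adjusted p up to 0.105).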

How the data were processed

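For every library the authors deposited a table that lists, per the file headers, FPKM, TPM and mean coverage (a signal per base) by gene. GRCm38 is the build named in the submitters' processing notes. Aligner, quantifier and use of strand: not given in the sources used here. FPKM of lines with the same gene identifier were summed (7 to 9 identifiers per table, 0 of them Igh V segments). Coordinates of all 92 segments matched GENCODE vM21, which gave biotypes and transcript sequences. Tests covered genes reaching 1 FPKM in 3 or more libraries and ran on log2(FPKM + 1), pseudocount 1, with limma 3.58.1 in R 4.3.3 (lmFit, eBayes with trend, genotype only), and p-values were adjusted by Benjamini-Hochberg over all genes and called below 0.05. Family totals entered the same fit as rows in place of the single segments. Ratios and shares were compared by exact two-sided permutation (SciPy 1.17.1), and 3 of the 6 ratios (Ighv5-2, Ighv14-2, and Ighv2 with Ighv5 but without Ighv5-2) were added after seeing the data. The fit was tested on simulated data.

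The segments, families and gene lists were chosen with earlier results of these data known. Named were the top segment of each family by mean FPKM (3 in Ighv2, Ighv3, Ighv5, Ighv8, Ighv9 and Ighv14), the 8 lowest and 5 highest log2 fold changes, Ighv5-2, Ighm, Igha, Jchain and pathway genes past the threshold. Ighv5-9, Ighv2-6, Ighv4-2 and other genes outside that rule were named after their values were seen. The design gives 3 mice per group. Promoter motifs and recombination signals were not analysed here.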

Additional observations from a re-analysis of the deposited data

How the results depend on the processing

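The summed level and the totals of Ighv2, Ighv3, Ighv5, Ighv6, Ighv7, Ighv8, Ighv10 and Ighv13 kept direction and call under all alternatives that gave a value (pseudocounts 0.1 and 5, other filters, TPM, upper-quartile rescaling, replicate block, functional segments only, without the top segment, and libraries left out); the log2 ratios of the segments to Ighv1, to Ighm and of Ighv2 and Ighv5 to the rest kept their direction. The number of segments called lower was 15 of 67 with no filter and 14 to 39 with 1 library left out. The Ighv12 total (log2 fold change −1.66) missed the threshold at −2.16 with pseudocount 0.1, at −1.66 with no filter, with the mean filter and with the replicate block, and at −1.89 with TPM; leaving out 1 library gave −2.05 to −1.37, and leaving out control 3 with Skiv2l-deleted 2 gave −2.21 (called). The Ighv9 total missed it with no filter (−2.46), and leaving out 1 library gave −2.81 to −2.17, and leaving out the same pair −2.85 (called). Without control 3 and Skiv2l-deleted 2 together, totals passed for Ighv11 (−1.55), Ighv14 (−1.10), Ighv15 (−1.99) and Ighv4 (−2.33). With 1 library left out the ranges were −1.44 to −0.66 for Ighv11, −1.13 to −0.71 for Ighv14, −1.73 to −0.86 for Ighv15 and −2.25 to −1.45 for Ighv4. Ighv14 passed without its top segment (−1.71), and Ighv4 with functional segments only (−1.70) and with the replicate block (−1.74). Ighv14-2 (−0.04) turned above 0 without control 1 or 2, at 0.02 for the second, and ranged from −0.22 to 0.080 with 1 library left out. The cause was not tested. Fewer samples or more genes tested lower the power if all else is equal. Fewer samples did not always give fewer calls. Leaving out control 3 raised the genes called from 1197 to 1767 and the segments called lower from 32 to 39. Deviations of same-numbered libraries correlated at 0.09, −0.43 and −0.35. The highest value between groups, 0.557, was that of control 3 with Skiv2l-deleted 2, the libraries with high Mpo. These correlations gave no sign of pairing by number, but they cannot exclude it. With the replicate block 28 segments were called lower and 365 genes in all, against 1197. With 3 libraries a group and no counts, single segments near 1 FPKM cannot be resolved.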
